A study of Rattus norvegicus with 8 samples.

Results

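Antigen presentation, interferon-response genes and the cytokine gene Il18 were examined in the adrenal glands of rat pups, as 9 genes read by 12 probe sets out of 10411 named genes and 15866 probe sets on the array. The genes were chosen by their function and with the hypoxic and normoxic values of these same pools already known, so their differences between the groups are given as a description, with no test. The 9 genes are B2m, Tap1, Psmb8 and Psmb9 (class I presentation), Irf1, Mx1, Mx2 and Ifitm3 (interferon response) and Il18. All probe sets that carried the symbol of 1 of these genes alone were used: 3 genes (B2m, Tap1 and Mx2) had 2 probe sets and 6 genes had 1.

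The pups were housed with their dams from birth to postnatal day 7, the hypoxic litters in 12% O2 and the normoxic litters in room air with dams fed ad libitum. Each of the 4 hypoxic and 4 normoxic samples was a pool of 24 decapsulated glands hybridised to 1 array with 1 colour. The labels name no strain, sex or litter, and where they do not say that pools came from separate litters, a p-value measures only the spread between these pools. Markers of the labelled tissue were bright in all pools: of the cortical genes Star, Cyp11a1, Hsd3b1, Cyp21a1 and Cyp11b1 the dimmest value was 4756.8 (Cyp11b1), and of the medullary genes Th, Dbh, Pnmt, Chga and Chgb it was 3910.1 (Dbh), in arbitrary units of intensity. Dimmer markers of the same lists went down to 363.7 (Nr5a1) and 209.9 (Slc18a2), still above the bacterial controls used as background in every pool.

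Nearly every nucleated cell shows peptides from its own proteins on class I molecules at its surface. The proteasome cuts the proteins, a transporter in the endoplasmic reticulum membrane carries the peptides inward, and beta-2-microglobulin pairs with the class I heavy chain that holds them. Interferons raise many genes of this route through transcription factors that bind their promoters, together with antiviral genes such as the Mx and Ifitm families. Interleukin 18 is a cytokine of the interleukin 1 family, made as an inactive precursor, known for driving interferon gamma production by lymphocytes, and its transcript has been described in rat adrenal cortex under stress and ACTH.

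Tap1, Psmb8 and Psmb9 are neighbours in the rat major histocompatibility complex on chromosome 20. In RefSeq's order of protein-coding genes they follow Tap2 and stand before RT1-DMb. The start regions of Tap1 and Psmb9 lie back to back on opposite strands, and their promoter windows (250 bases before the start to 50 after it) share 44 bases. The RefSeq promoter table, on assembly GRCr8, held 8 of the 9 genes, and Mx2 was not in it. Each window was searched on both strands for the core of the interferon-stimulated response element, GAAANNGAAA, and for the gamma-activated site, TTCNNNGAA.

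The response element core was found in the windows of 4 of the 8 genes (B2m, Tap1, Psmb8 and Ifitm3), and in 3.92% of all 33469 promoter windows in the table. The gamma-activated site was found in 3 of the 8 (Psmb8, Irf1 and Ifitm3), against 8.87% of all windows. Both motifs stood in Psmb8 and Ifitm3, and 0.514% of all windows held both. The windows of Psmb9, Mx1 and Il18 held neither. The upstream parts of 5 windows follow, 5′ to 3′ on the strand of the gene and cut where the annotated gene begins, with matches in capitals. They show B2m, Tap1, Irf1 and Ifitm3, whose matches lie in the part shown, and Il18, the gene with the clearest difference between the groups.
B2m (GRCr8, chr3:129549080-129549235, plus strand): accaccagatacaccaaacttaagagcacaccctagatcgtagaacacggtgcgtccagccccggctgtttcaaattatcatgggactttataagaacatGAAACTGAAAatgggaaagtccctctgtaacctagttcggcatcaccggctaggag
Tap1 (GRCr8, chr20:4668544-4668793, minus strand): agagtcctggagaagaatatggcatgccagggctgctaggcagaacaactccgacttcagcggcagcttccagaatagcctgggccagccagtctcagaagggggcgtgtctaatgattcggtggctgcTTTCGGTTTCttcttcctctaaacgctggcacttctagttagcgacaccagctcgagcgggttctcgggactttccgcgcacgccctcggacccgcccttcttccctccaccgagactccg
Irf1 (GRCr8, chr10:38417685-38417934, plus strand): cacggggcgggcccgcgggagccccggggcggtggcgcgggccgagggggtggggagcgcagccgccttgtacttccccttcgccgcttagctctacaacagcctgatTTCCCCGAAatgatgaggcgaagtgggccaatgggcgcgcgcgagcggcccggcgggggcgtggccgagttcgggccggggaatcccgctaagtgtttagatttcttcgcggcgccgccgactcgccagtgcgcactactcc
Ifitm3 (GRCr8, chr1:205541759-205542008, minus strand): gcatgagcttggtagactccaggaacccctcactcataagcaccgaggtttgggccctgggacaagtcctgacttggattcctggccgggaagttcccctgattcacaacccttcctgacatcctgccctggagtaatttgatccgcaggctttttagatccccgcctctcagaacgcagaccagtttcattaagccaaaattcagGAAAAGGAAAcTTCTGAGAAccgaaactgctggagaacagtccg
Il18 (GRCr8, chr8:59801822-59802071, plus strand): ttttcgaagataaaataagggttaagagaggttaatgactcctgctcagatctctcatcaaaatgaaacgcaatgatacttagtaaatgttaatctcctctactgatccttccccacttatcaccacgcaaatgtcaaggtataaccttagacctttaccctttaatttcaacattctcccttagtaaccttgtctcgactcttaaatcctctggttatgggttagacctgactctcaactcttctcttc

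In Ifitm3 the 2 matches were only 1 base apart, GAAAAGGAAA followed by TTCTGAGAA. In Tap1 the response element core lay on the opposite strand and appears as TTTCGGTTTC. The matching letters of Irf1 were TTCCCCGAA. A match is a run of letters and was not tested for binding in these glands. Nor does a window without a match show that its gene lacks such an element, since only exact letters in 1 window were searched.

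Il18 was the only member whose groups did not overlap at the brightest probe set of each gene. It measured 992.9, 909.9, 1002.2 and 865.4 in hypoxic pools 1 to 4, against 491.4, 715.2, 612.5 and 565.4 in normoxic pools 1 to 4. All 4 hypoxic values lay above the highest normoxic value, that of normoxic pool 2. The means were 943 ± 66.1 in hypoxic and 596 ± 93.7 in normoxic pools (SD, n = 4 each). On the log2(intensity + 16) scale, which is used for all log2 differences here and understates those of dim probe sets, Il18 was 0.66 higher in hypoxic pools with a standard error of 0.12. That is a ratio of 1.58. With 1 pool left out at a time the difference ran from 0.57 to 0.75.

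Among the 11106 probe sets above the brightness filter, 5.39% did not overlap between the groups, 2.76% with the hypoxic pools higher and 2.64% with them lower. Of the 9 members 1 did not overlap, and since the members were chosen on this contrast nothing is read from that count. In limma 20 probe sets, 0.180% of those tested, had an adjusted p under 0.05, and since the members were chosen with that outcome known, nothing is read from the 0 of 8 member probe sets among them. The count of 20 changed when a pool was left out, which also leaves fewer pools in the fit. Leaving out any of normoxic pools 1 to 3, or hypoxic pool 2 or 3, gave 0 probe sets. In those fits the smallest adjusted p in limma ran from 0.0524 to 0.109. Dropping hypoxic pool 4 gave 2 and dropping normoxic pool 4 gave 1, and dropping hypoxic pool 1 gave 31. In bulk glands, fewer cells of a type and less RNA per cell cannot be told apart.

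**Figure D1:**
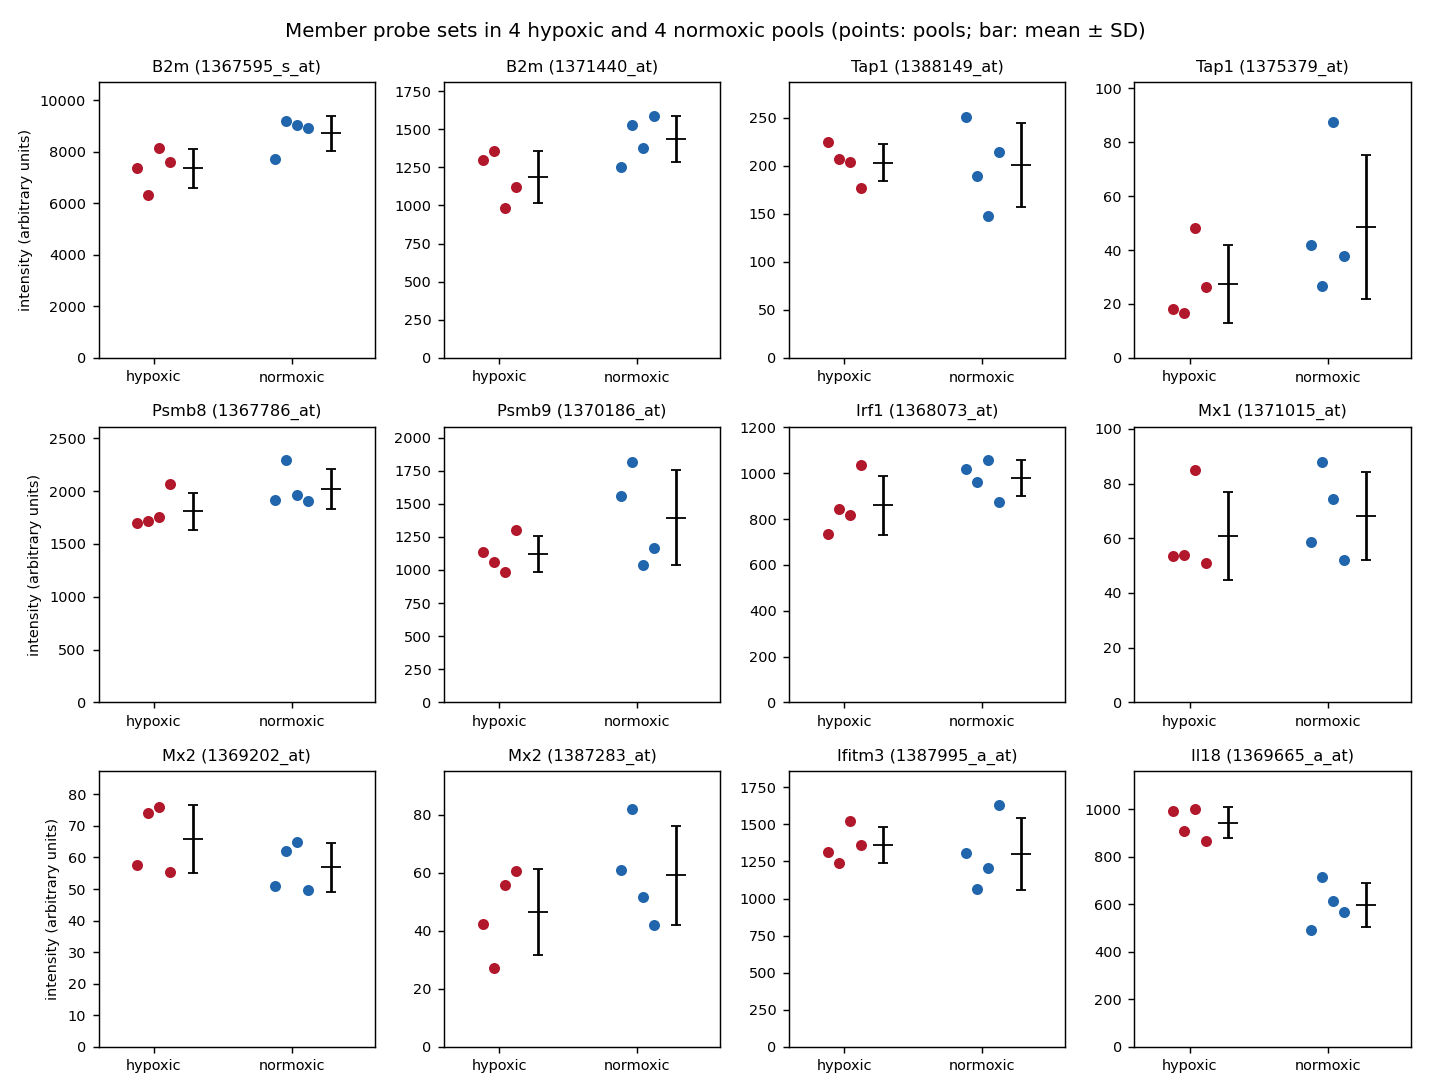
Intensity in arbitrary units of the 12 member probe sets in each hypoxic (red, left) and normoxic (blue, right) pool, with mean and SD beside the points. The 4 hypoxic pools sit above the 4 normoxic pools for Il18 (865.4 and more against 715.2 and less), and the groups overlap in the other panels.

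B2m, the light chain of class I molecules and the brightest member, was lower in the hypoxic pools on both of its probe sets. The brighter probe set measured 7355, 6333.1, 8138.4 and 7611.8 in hypoxic pools 1 to 4, against 7700.7, 9178.6, 9029.6 and 8929.4 in normoxic pools 1 to 4. Normoxic pool 1 lay well under the other normoxic pools, and hypoxic pool 3 was the only hypoxic pool above it. The log2 difference was -0.24 with a standard error of 0.10. The name of this probe set carries the suffix that the maker gives to probes shared by several transcripts.

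The dimmer B2m probe set averaged 1188 ± 169.8 in hypoxic and 1435 ± 149 in normoxic pools (SD, n = 4 each). Its log2 difference was -0.27, close to that of the brighter one, and 2 of the 4 hypoxic pools lay under all normoxic pools. Within the groups, however, the pools did not rank alike on the 2 B2m probe sets (r = -0.28 over 8 pools after removing group means, given as a description).

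Psmb8 and Psmb9 encode subunits that replace constitutive catalytic subunits in the immunoproteasome. Psmb8 measured 1699.5, 1717.5, 1753.1 and 2071.2 in hypoxic pools 1 to 4, against 1912.9, 2295.7, 1960.4 and 1902.5 in normoxic pools 1 to 4. Hypoxic pools 1 to 3 lay under every normoxic pool, and hypoxic pool 4 lay above 3 of them. Its log2 difference was -0.16 with a standard error of 0.10, and -0.09 without normoxic pool 2. Psmb9 measured 1138, 1057.7, 982 and 1300.9 in hypoxic pools, against 1560.6, 1816.4, 1040.8 and 1163.8 in normoxic pools. The normoxic pools were spread widely, at 1395 ± 358 against 1119.7 ± 137 in hypoxic pools (SD, n = 4 each), and only hypoxic pool 3 lay under all of them. The Psmb9 log2 difference was -0.29 with a standard error of 0.16, and it ran from -0.41 to -0.15 (without normoxic pool 2) with 1 pool left out.

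Tap1 encodes 1 of the chains of the peptide transporter, and its probe sets did not share a direction. The brighter one measured 224.2, 207.2, 204.2 and 177 in hypoxic pools 1 to 4, against 250.9, 189.3, 147.4 and 214.8 in normoxic pools 1 to 4. The hypoxic pools all lay inside the normoxic range, and the log2 difference of 0.04 had a standard error of 0.16. Its sign turned to -0.09 without normoxic pool 3 and to -0.01 without hypoxic pool 1. The dim probe set had a log2 difference of -0.55 (-0.29 without normoxic pool 3, and -0.79 with an offset of 1 in place of 16, larger in size than the 0.67 of Il18 at that offset), but it was above the 95th percentile of bacterial control probe sets (46.6) in only 2 of 8 pools and was left out by the brightness filter.

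Irf1, a transcription factor that interferon gamma induces and that acts on class I genes, measured 736.4, 844.3, 819.3 and 1036.1 in hypoxic pools 1 to 4. The normoxic pools measured 1018.5, 959.5, 1057.2 and 875.2. Hypoxic pools 1 to 3 lay under every normoxic pool, as for Psmb8, while hypoxic pool 4 lay among them. The log2 difference was -0.19 with a standard error of 0.12, and -0.28 at the lowest and -0.12 at the highest with 1 pool left out.

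Ifitm3 encodes a membrane protein that restricts virus entry. It measured 1310.6, 1237.6, 1523.6 and 1360 in hypoxic pools 1 to 4, against 1306, 1064.5, 1202.8 and 1629.8 in normoxic pools 1 to 4. All hypoxic pools lay inside the normoxic range. The log2 difference was 0.07 with a standard error of 0.13, and it turned to -0.01 without normoxic pool 2.

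Mx1 and Mx2 encode dynamin-like GTPases that interferon alpha and beta induce, and both were near the background of the array. Mx1 measured between 50.8 and 85.1 in hypoxic pools and between 52.1 and 87.8 in normoxic pools. The brighter Mx2 probe set measured between 55.4 and 76.0 in hypoxic and between 49.7 and 64.8 in normoxic pools, and the dimmer one between 27.3 and 60.7 in hypoxic and between 42.1 and 82.1 in normoxic pools. The highest value of any bacterial control used as background was 83.5, which Mx1 exceeded in 2 of 8 pools and Mx2 in 0 on either probe set. The 95th percentile of the controls (46.6) was exceeded in all 8 pools by Mx1 and the brighter Mx2 probe set, and in 5 by the dimmer one. The Mx1 and Mx2 probe sets lay below the brightness filter, and their log2 differences of -0.13 (Mx1), 0.16 and -0.27 (Mx2) come from a fit of all probe sets. With 1 pool left out they ran from -0.27 to -0.03 for Mx1, from 0.10 to 0.23 for the brighter and from -0.39 to -0.11 for the dimmer Mx2 probe set. At this signal small changes in either gene could not be detected.

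At the brightest probe set of each gene, 5 of the 9 members were lower in hypoxic pools and 4 were higher. Their median was -0.13 on the log2 scale. Over all tested probe sets 54.8% were lower and the median was -0.02. B2m, Psmb8, Psmb9, Irf1 and Mx1 made up the lower group, and at these probe sets none of the 5 differed by as much as Il18.

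**Figure D2:**
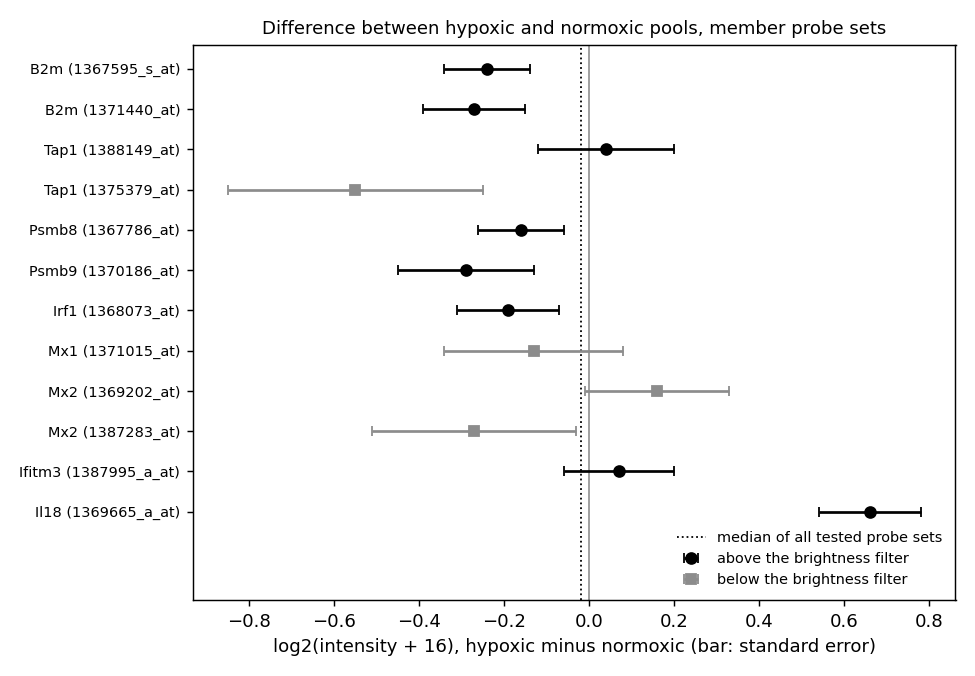
Log2 difference of each member probe set, hypoxic minus normoxic pools, with its standard error; circles lie above the brightness filter and squares below it, and the dotted line is the median of all tested probe sets (-0.02). Il18 stands at 0.66, while the B2m, Psmb8, Psmb9 and Irf1 probe sets lie between -0.29 and -0.16.

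At their brightest probe sets the members showed no shared course from pool to pool. Different probe sets of the same gene did not go together either. Their r was -0.28 for B2m, -0.52 for Tap1 and -0.05 for Mx2, where the dimmer Tap1 and both Mx2 probe sets were near background. The correlations below therefore cannot show whether the genes themselves vary together or apart. After group means were removed, the 36 pairs of members had a median correlation of -0.02 over the 8 pools, with 17 pairs above 0 (a description across pools that share array scaling). The pairs that went together best were Mx1 with Mx2 (r = 0.77), both near background, Mx1 with Il18 (0.72) and Psmb8 with Psmb9 (0.67). Tap1 and Irf1 ran opposite (-0.52). Among the 4 presentation genes 3 of 6 pairs were above 0, and among the 4 interferon genes 1 of 6 was. Hypoxic pool 4 was the hypoxic pool with the highest values of Psmb8, Psmb9 and Irf1 and with the lowest value of Il18.

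**Figure D3:**
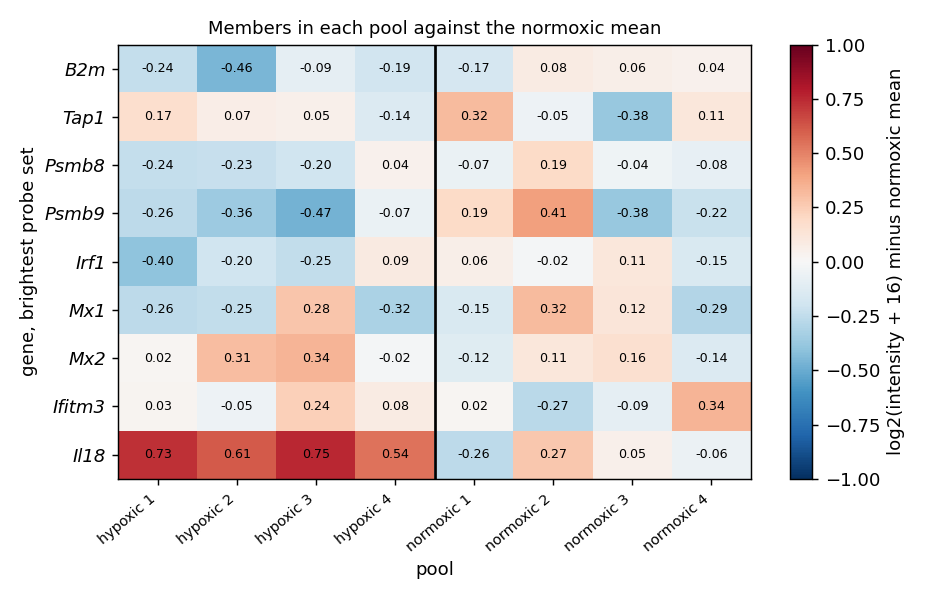
Log2(intensity + 16) of each member's brightest probe set in every pool, minus the mean of the normoxic pools, with hypoxic pools left of the line. Il18 is 0.54 to 0.75 above that mean in all 4 hypoxic pools, and B2m 0.09 to 0.46 below it.

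Of 8004 other named genes, those whose deviations within the groups were most like the mean of the presentation members were Tmem192 (r = 0.97), Gas7 (0.96), Tspan31 (0.96), Pdzrn3 (0.95) and Igsf8 (0.95). For the mean of the interferon members, Mx1 and Mx2 near background among them, they were Ppp1r37, Serf2, Naa60 and Calcr (0.98 each) and Kank3 (0.97). Il18 was most like Casp1 (0.98), Clk2 (0.97) and Samsn1 (0.96). With 8 pools and so many genes, values of this size were found at the top of each ranking, and the median over all genes was 0.01, 0.02 and 0.0016 for the presentation members, the interferon members and Il18. Between the groups Casp1 averaged 249 ± 20.5 in hypoxic and 280.1 ± 43.8 in normoxic pools (SD, n = 4 each), a log2 difference of -0.15 where that of Il18 was 0.66.

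The rest of these pathways was read from 6 lists of genes that left out the members. Of 120 listed genes with a probe set of their own, 92 lay above the brightness filter, and 0 of the 92 changed at an adjusted p of 0.05 in limma, where the smallest was 0.221. At an unadjusted p under 0.05 there were 5 genes (5.43%), 4 lower and 1 higher in hypoxic pools, against 8.64% of all tested probe sets. Of the 92 genes 40 were higher and 52 lower, and their median was -0.04 on the log2 scale. At the probe set used for each gene, 0 of the 92 separated the groups without overlap, against 5.39% of all tested probe sets.

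In the class I list, 10 of 21 tested genes were higher and 11 lower (median -0.02), with 0 past the threshold. The lowest p belonged to Calr, the chaperone calreticulin that helps to load class I molecules, at 3681 ± 673 in hypoxic and 3006 ± 172 in normoxic pools (SD, n = 4 each; log2 0.28, limma adjusted p = 0.550). The class I genes RT1-T24-3 and RT1-M3-1 had log2 differences of -0.31 and -0.23, and RT1-CE12 one of 0.15, all with limma adjusted p of 0.672 or more. Class I genes of the rat are close copies of each other, and whether the probes tell them apart was not tested. The partners of the members, Tap2 (log2 -0.15) and the third immunoproteasome subunit gene Psmb10 (-0.13), were looked up after their values had been seen.

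The constitutive beta subunits of the proteasome had 4 of 6 genes higher and 2 lower, with a median of 0.01 and 0 past the threshold. Psmb3 differed by 0.15, Psmb7 by 0.11, Psmb2 by -0.18 and Psmb1 by -0.03. Over all 6 genes the adjusted p in limma ran from 0.711 to 0.992. In the class II list, which marks dedicated antigen-presenting cells, 5 of 9 tested genes were higher and 4 lower (median 0.01), with 0 past the threshold. RT1-Da, a class II chain, averaged 297 ± 59.7 in hypoxic and 359 ± 40.3 in normoxic pools (log2 -0.27). The lysosomal thiol reductase gene Ifi30 differed by 0.17, the protease gene Ctss by -0.21 and RT1-Ba by 0.30, with -0.25 on a second, dim RT1-Ba probe set.

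Interferon receptors, kinases and regulators gave 7 genes higher and 9 lower of 16 tested (median -0.05), and 0 passed. Ifngr2, a chain of the interferon gamma receptor, averaged 616 ± 55.1 in hypoxic and 708 ± 56.1 in normoxic pools (log2 -0.20, limma adjusted p = 0.643), and a second probe set below the filter differed by -1.0, at 61.2 ± 27.6 in hypoxic and 133 ± 28.5 in normoxic pools without overlap. The suppressor gene Socs2 differed by -0.30, the kinase gene Tyk2 by -0.16 and Stat3 by 0.17, with 0.25 on a second Stat3 probe set whose groups did not overlap (limma adjusted p = 0.503). The genes of 2 interferons were looked up after their values had been seen: Ifng averaged 28.3 in hypoxic and 26 in normoxic pools, and Ifnb1 21.9 in hypoxic and 15.8 in normoxic pools. These means lay under the 95th percentile of the bacterial controls.

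Among the interferon target genes 19 of 27 tested were lower and 8 higher in hypoxic pools, with a median of -0.10 and 0 past the threshold. The 4 genes with an unadjusted p under 0.05 in limma were all lower. Over all tested probe sets 54.8% were lower, and 8.64% had an unadjusted p under 0.05 in either direction. Bst2 encodes tetherin, which holds virus particles at the cell surface. It measured 5926.4, 5313, 9647.4 and 6849.5 in hypoxic pools 1 to 4, against 9232.6, 10893.1, 10870.3 and 10750.2 in normoxic pools 1 to 4. Hypoxic pools 1, 2 and 4 lay far under every normoxic pool, while hypoxic pool 3 lay above normoxic pool 1. The log2 difference was -0.62 (standard error 0.16, limma adjusted p = 0.221, and from 0.0553 without hypoxic pool 3 to 0.551 over 14 alternatives). Ifi27l2b differed by -0.45, the gene Usp18 of an enzyme that removes ISG15 by -0.38, and Ifitm1, a relative of Ifitm3, by -0.26, with limma adjusted p of 0.475, 0.576 and 0.574.

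In the list around interleukin 18 (its binding protein, the inflammasome, interleukin 1 relatives and their signalling), 6 of 13 tested genes were higher and 7 lower (median -0.05), and 0 passed. Il33, another cytokine of the interleukin 1 family, averaged 1683 ± 220 in hypoxic and 1323 ± 444 in normoxic pools (log2 0.40, limma adjusted p = 0.632), and a further Il33 probe set also had a log2 difference of 0.40 (limma adjusted p = 0.490). The log2 difference was 0.14 for Nfkb1, -0.18 for the inflammasome adaptor gene Pycard and -0.19 for Il12b. In mammals in general the protease encoded by Casp1 cuts the interleukin 18 precursor to its active form. The messages measured here do not show how much of the protein was cut.

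**Figure D4:**
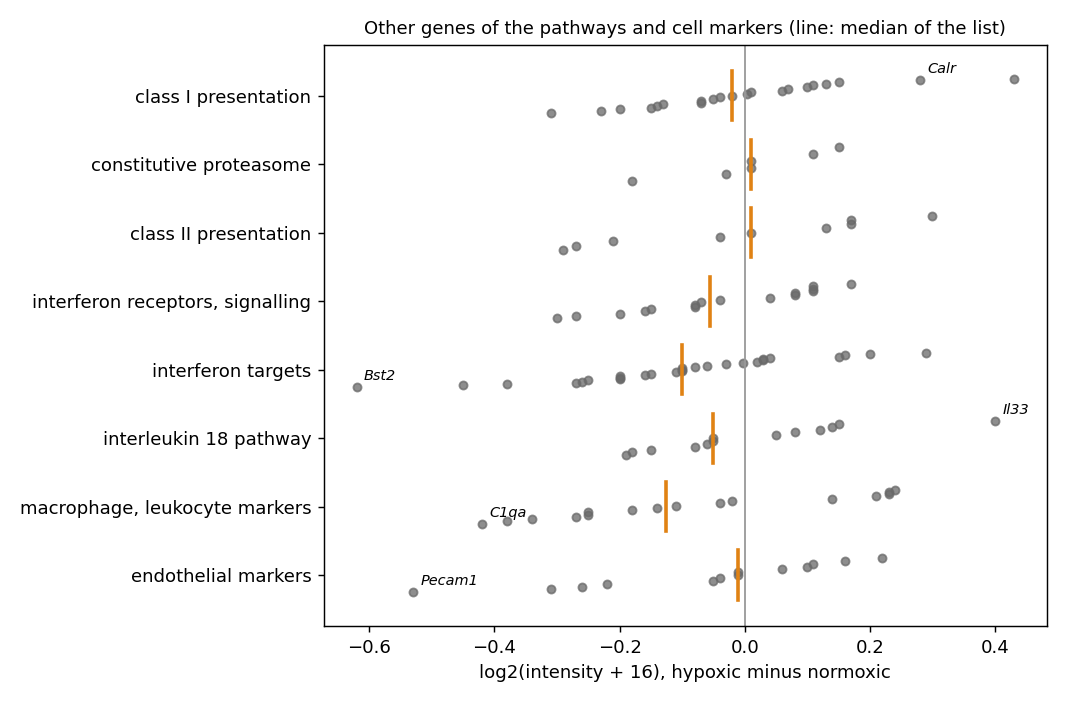
Log2 difference, hypoxic minus normoxic, of each tested gene in 6 pathway lists and 2 marker lists (points), with the median of each list as a line. Among the genes named in the text, Bst2 is at -0.62 and Il33 at 0.40, and the medians of the 6 pathway lists lie between -0.10 and 0.01.

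Markers of blood-derived and vessel cells were read beside these genes, since such cells express many of them. Of 22 macrophage and general leukocyte markers, 15 were above every bacterial control in all pools, and 3 (Itgam, Cd37 and Fcgr2b) never exceeded the 95th percentile of the controls. Their summed intensity ran from 6015 to 7397 in hypoxic and from 6691 to 8182 in normoxic pools. Of 16 tested, 11 were lower and 5 were higher (median -0.13 on the log2 scale). The 3 brightest were Lyz2, Fcer1g and C1qa, of which Lyz2 differed by -0.18 and Fcer1g by -0.02. C1qa averaged 391 ± 47.1 in hypoxic and 527 ± 56.1 in normoxic pools (SD, n = 4 each), and C1qc, named after its values had been seen, 345 ± 42.3 in hypoxic and 439 ± 42 in normoxic pools, both without overlap (limma adjusted p = 0.304 and 0.438). They were the only 2 of the 16 tested markers without overlap, against 5.39% of all tested probe sets.

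Of 18 lymphocyte and granulocyte markers, 3 were above every bacterial control in all pools, and Cd3e, Cd2 and Cd79b never exceeded the 95th percentile. The 3 brightest, Lck, Cd4 and Cd247, had log2 differences of -0.07, 0.05 and -0.17. The summed intensity of the list ran from 1439 to 1708 in hypoxic and from 1368 to 1858 in normoxic pools. All 13 endothelial markers were above the controls, with a sum from 7361 to 8273 in hypoxic and from 7324 to 8552 in normoxic pools. Of the 13, 5 were higher and 8 lower (median -0.01). The 3 brightest, Kdr, Emcn and Ramp2, differed by 0.11, -0.22 and -0.01. Pecam1, also named after its values had been seen, was the 1 of the 13 without overlap (5.39% over all tested probe sets), at 196 ± 26.7 in hypoxic and 288 ± 33.7 in normoxic pools (SD, n = 4 each; limma adjusted p = 0.238).

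Markers of the gland's own cells were read in the same way. All 10 medullary markers were higher in hypoxic pools, with a median of 0.19, and their sum ran from 40931 to 56576 in hypoxic and from 35551 to 47356 in normoxic pools. Slc18a2, the vesicular monoamine transporter gene, passed the test at 503 ± 60.8 in hypoxic and 248 ± 44.5 in normoxic pools (SD, n = 4 each; log2 0.98, limma adjusted p = 0.0318), a call that is lost wherever leaving out a pool gave 0 probe sets. In limma 5 of the 10 had an unadjusted p under 0.05, against 8.64% of all tested probe sets. Of the 10, 2 did not overlap, against 5.39% of all tested probe sets, of which 54.8% were lower in hypoxic pools. The 3 brightest, Pnmt, Th and Chga, differed by 0.09, 0.13 and 0.34. Of 8 cortical markers, led in brightness by Fdx1, Cyp21a1 and Cyp11a1, 6 were higher and 2 lower (median 0.02), with 0 past the threshold, and their sum ran from 89169.6 to 131671 in hypoxic and from 89739 to 122992 in normoxic pools.

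Within the groups, the mean of the presentation members correlated over the 8 pools at r = 0.06 with the leukocyte, -0.32 with the lymphocyte, -0.45 with the endothelial, -0.30 with the cortical and 0.01 with the medullary marker mean. For the interferon members, which include Mx1 and Mx2 near background, the values were 0.49 (leukocyte), 0.19 (lymphocyte), 0.49 (endothelial), 0.63 (cortical) and 0.63 (medullary). For Il18 they were 0.13 (leukocyte), 0.21 (lymphocyte), -0.51 (endothelial), 0.54 (cortical) and 0.42 (medullary). These are descriptions over pools that share array scaling, and probe sets of the same member did not go together within the groups. The part of any of these cells in the differences of the members was not tested.

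The 5′ over 3′ signal of beta-actin, a sign of RNA integrity, was 0.495 ± 0.190 in hypoxic and 0.607 ± 0.143 in normoxic pools (SD, n = 4 each; exact permutation test, two-sided, p = 0.4). In pools 1 to 4 it was 0.249, 0.491, 0.713 and 0.528 (hypoxic) and 0.413, 0.597, 0.744 and 0.674 (normoxic). At every number the hypoxic pool was lower, and the test did not pair pools by number. The Gapdh ratio was 0.609 ± 0.0423 in hypoxic and 0.664 ± 0.0646 in normoxic pools (exact permutation test, two-sided, p = 0.2). By number, the hypoxic Gapdh ratio was lower in pools 1, 3 and 4 and higher in pool 2. The part of these ratios in the differences was not tested.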

How the data were processed

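The values deposited by the authors are intensities of probe sets, linear and in arbitrary units, with 1 column per pool. Sources used here do not name the program that summarised the probes. Every array had a mean of 500.1 once 2% was trimmed at each end, so the deposited intensities had been scaled to a common mean, which hides a shift shared by most transcripts. The background was read from 27 of the 57 control probe sets (median 5.4, 95th percentile 46.6, highest 83.5). These were the ones named for the bacterial genes Dap, Lys, Phe, Thr and Trp, and the text means them by bacterial controls.

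The platform annotation gave 1 gene symbol for 12783 of 15866 probe sets, several for 312 and none for 2771, and only those with 1 were named. Of the 12783, 12748 matched a RefSeq gene ID. Promoters came from RefSeq (GRCr8).

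Values under 1 were raised to 1, then log2(intensity + 16) was taken. Array medians lay within 0.117 log2, so no other normalization was applied. The brightness filter kept 11106 probe sets, those not below the 30th percentile of mean log2 value (an intensity of 95.2). The groups were tested with limma 3.58.1 (variance trend, two-sided) in R 4.3.3, and p-values were adjusted over all 11106 by the Benjamini-Hochberg method. The procedure was tested on simulated data. A gene stands for its brightest probe set, and the number of arrays limits the precision. At most 0.308% of values were equal between any 2 arrays.

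The members and lists were chosen with earlier results of these data known. Besides the members, the text names up to 4 genes of each pathway list with the lowest p. It also names the genes most like the members within groups (5, 5 and 3). Of the markers it names the 3 brightest, the undetected ones, those of the opening paragraphs, and Slc18a2 because it passed the test. Others are marked as named after their values had been seen. Alternatives were other offsets, no filter, no variance trend, quantile normalization, averaged probe sets, a replicate block and each pool left out.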

Additional observations from a re-analysis of the deposited data

Results flagged for a closer look

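In groups of 4 pools, a pool was marked where its gap to the nearest other pool, as a share of the group's range, passed Dixon's critical value. This was done for the 12 member probe sets and the 24 named pathway genes, 72 groups in all, and 6 were marked; chance marks about 1 group in 20. Psmb8 was marked in both groups: hypoxic pool 4 at 2071.2 lay above the other hypoxic pools (1699.5 to 1753.1), and normoxic pool 2 at 2295.7 above the other normoxic pools (1902.5 to 1960.4). B2m in normoxic pool 1, at 7700.7 on the brighter probe set, lay under the other normoxic pools (8929.4 to 9178.6). Bst2 was low in the same pool, at 9232.6 against 10750.2 to 10893.1. Mx1 in hypoxic pool 3, at 85.1, lay above the other hypoxic pools (50.8 to 54.0), near the highest bacterial control. Psmb7 in normoxic pool 2, at 4197.4, lay above the others (3911.5 to 3949.9).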

How the results depend on the processing

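The differences of the 12 member probe sets, recomputed under every alternative that bears on them, gave 144 values, and all 144 moved by less than the spread between pools; 3 turned in sign, Tap1 without normoxic pool 3 (-0.09) or hypoxic pool 1 (-0.01) and Ifitm3 without normoxic pool 2 (-0.01). The count of lower members was 5 to 6 with a pool left out and 7 with the probe sets of a gene averaged. The count of members without overlap, 1 (Il18) as reported, was 3 after quantile normalization (with B2m lower and Mx2 higher), 2 with probe sets averaged (with B2m) and 1 to 3 with a pool left out: B2m joined without normoxic pool 1 or hypoxic pool 3, and Psmb8 and Irf1 without hypoxic pool 4. Over all probe sets, the 20 calls became 0 with no brightness filter or no variance trend, and 0 to 31 with a pool left out (at an unadjusted p under 0.05 there were 960 as reported, 1199 with no filter and 941 with no trend). The cause was not tested. The pathway lists gave 0 calls under every alternative run in limma, with 3 to 8 genes at an unadjusted p under 0.05. With the replicate block the calls were 18 over all probe sets and 0 in the pathway lists, and 5 members were lower; no overlap count was made there. Same-numbered pools correlated at 0.323, 0.003, 0.186 and -0.043 (pools 1 to 4) after group means were removed. Pools with different numbers ran from -0.311 to 0.163, under the values for pools 1 and pools 3. The labels do not say that the numbers pair the pools, and the main fit did not use them. Whether same-numbered pools share a batch was not tested. Probe sets near the bacterial controls, those of Mx1 and Mx2 and the dim one of Tap1, can show only large changes.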
